A study of Mus musculus with 101 samples.

Results

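The Cancer category of the target panel held 147 of the 868 regions whose average methylation was deposited for lines of naive mouse embryonic stem cells. The category name is the authors' own, and the labels do not say how its regions were selected. Regions measured in 80% or more of the lines, that is 68 of 85, were kept, and rows of the imprinted genes Gnas, Peg10 and Magel2 were left out by coordinates. A row in Meg3, another imprinted gene, was not among the rows left out, and had 27.8% ± 15.1 (SD, n = 85). This left 136 Cancer category regions among 787 kept regions of all categories, each 500 bases long. Of the 136, 114 had no missing value. At the edge of the limit, the Fam131b region had values in 68 lines, with a mean of 12.3%, and the excluded Kash5 region had values in 67, with a mean of 19.9%. The other 7 rows below the limit are described in the closing section.

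Methylation was read by enzymatic methyl sequencing after hybrid capture, and the series' stated goal was to evaluate how variable it is among lines. All lines were embryonic stem cells derived from the outbred Diversity Outbred mouse stock and were cultured in serum with LIF and the kinase inhibitors known as 2i. The prefix of the line name was the only grouping, with 28 B1, 18 B2, 20 B3A and 19 B3B columns, and the labels do not explain it. There were no untreated or control lines, no stated sex or passage, and no expression values with which to check the cell type against its markers.

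The values were fractions without read counts, so the depth behind each is unknown, and they are given below as percent. Lines lacked between 25 and 173 of the 868 regions, with a median of 58. Of the 85 columns, 44 matched 1 title, 16 named lines with 2 titles, 24 differed from the title by a final N and 1 had no matching title. Columns B1dB37 and B1dB37N, each with a title of its own, differed only in that N, and their means over the Cancer category regions were 17.5% and 15.1%. Nothing in the labels says that columns came from separate cultures, so each p-value below reflects only how much these columns spread, which may be technical.

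In mammalian cells, DNA methylation is placed mostly on cytosines that precede a guanine, called CpGs, and is maintained by the DNMT enzymes through cell division. Stretches rich in CpGs at gene starts, called CpG islands, are unmethylated in most normal cells, and many of them gain methylation in tumours, where the rest of the genome tends to lose it. Inhibition of the MEK and GSK3 kinases, as in 2i, is known to lower methylation across the genome of embryonic stem cells.

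Of the 136 regions, 115 overlapped a gene, 16 lay within 5 kb of one and 5 lay farther away. By RefSeq start sites (GRCm38.p6, the coordinate system that mm10 also uses), 17 regions held a start site, 54 lay within 1 kb of one and 63 lay farther. The other 2, at Pcdhga3 and Synpo, had no gene in the table of start sites used here. The sequences below are the bases that precede the start site in 8 of these 17 regions, from RefSeq, as far as they lie inside the region and up to 250 bases, written 5′ to 3′ on the gene's strand with each CG in capitals. They were chosen after their values were seen. They show CG-rich starts with low means, and starts with fewer CG across the range of methylation. The CG-rich starts of Duoxa1 and Fkbp6, in regions with means of 9.78% and 18.8%, are not shown.

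Tgif2 (chr2:156839757-156840006, plus strand): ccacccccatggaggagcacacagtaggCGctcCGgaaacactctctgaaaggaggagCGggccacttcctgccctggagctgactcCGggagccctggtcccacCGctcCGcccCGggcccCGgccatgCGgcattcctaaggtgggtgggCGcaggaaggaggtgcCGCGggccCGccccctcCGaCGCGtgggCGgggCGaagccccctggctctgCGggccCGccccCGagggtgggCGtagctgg
Sstr4 (chr2:148395127-148395376, plus strand): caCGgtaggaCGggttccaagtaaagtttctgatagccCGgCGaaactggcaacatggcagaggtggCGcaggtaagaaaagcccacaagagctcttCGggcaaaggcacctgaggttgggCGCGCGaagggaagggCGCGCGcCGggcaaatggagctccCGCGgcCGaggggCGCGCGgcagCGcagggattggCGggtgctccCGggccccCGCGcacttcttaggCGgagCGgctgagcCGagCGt
Boll (chr1:55362729-55362978, minus strand): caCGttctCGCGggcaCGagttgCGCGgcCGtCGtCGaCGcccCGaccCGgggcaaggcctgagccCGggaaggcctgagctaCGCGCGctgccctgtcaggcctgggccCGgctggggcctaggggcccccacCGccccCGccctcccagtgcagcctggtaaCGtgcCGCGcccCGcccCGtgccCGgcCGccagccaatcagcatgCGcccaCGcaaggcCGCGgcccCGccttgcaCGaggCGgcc
Robo4 (chr9:37401722-37401971, plus strand): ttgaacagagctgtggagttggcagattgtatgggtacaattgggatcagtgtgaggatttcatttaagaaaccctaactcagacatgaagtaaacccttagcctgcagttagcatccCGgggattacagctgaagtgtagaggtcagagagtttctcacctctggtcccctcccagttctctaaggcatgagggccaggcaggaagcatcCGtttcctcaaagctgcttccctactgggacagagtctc
Lrrc4c (chr2:96317919-96318168, plus strand): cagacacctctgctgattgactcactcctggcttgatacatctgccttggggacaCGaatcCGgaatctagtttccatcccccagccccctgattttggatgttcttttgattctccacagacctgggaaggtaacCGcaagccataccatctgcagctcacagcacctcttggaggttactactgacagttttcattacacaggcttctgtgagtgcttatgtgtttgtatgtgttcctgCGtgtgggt
Capn9 (chr8:124575884-124576110, plus strand): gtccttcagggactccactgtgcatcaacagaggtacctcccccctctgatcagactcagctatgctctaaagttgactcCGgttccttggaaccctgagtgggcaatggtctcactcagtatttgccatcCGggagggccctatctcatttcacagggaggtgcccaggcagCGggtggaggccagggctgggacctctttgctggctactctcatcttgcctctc
Atp2b2 (chr6:113934682-113934931, minus strand): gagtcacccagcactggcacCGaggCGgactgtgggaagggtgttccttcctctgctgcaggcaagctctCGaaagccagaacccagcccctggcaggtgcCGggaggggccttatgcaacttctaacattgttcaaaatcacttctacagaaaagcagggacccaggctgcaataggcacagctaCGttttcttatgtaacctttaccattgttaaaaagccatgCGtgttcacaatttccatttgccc
Nfia (chr4:97581767-97581942, plus strand): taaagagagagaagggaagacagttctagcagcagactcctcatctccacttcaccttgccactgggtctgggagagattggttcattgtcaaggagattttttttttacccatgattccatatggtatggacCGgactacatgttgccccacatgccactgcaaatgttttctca

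Among regions holding a start site, those with 20 or more CG around it had means below 20%. Those with at most 9 CG ranged more widely. In the promoter window of 250 bases before and 50 after each start site, Tgif2, a homeobox repressor of TGF-beta responses, held 25 CG, Sstr4, a somatostatin receptor, held 35 and Boll, a germ cell RNA-binding protein, held 39. Among all 32851 RefSeq promoter windows of this length, 18.4%, 6.95% and 4.45% held at least as many. The regions of these genes had means of 0.341%, 1.34% and 5.47%. With Duoxa1 and Fkbp6, they were the 5 regions with 20 or more CG in the window, and their means lay between 0.341% and 18.8%.

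The 10 regions with at most 9 CG in the window had means from 1.31% to 47.4%, with a median of 31.7%. All promoter windows had a median of 7 CG, so not all of these 10 were poor in CG. The means are of whole regions. At Znrf4, Noxa1 and Fgf21, the region held only 1, 7 and 20 of the bases before the start site. Nfia, a transcription factor of glial development, held 2 CG in its window and had the highest mean of the 17, 47.4%. Atp2b2, a calcium pump of the plasma membrane, held 8 and had 41.6%, Capn9, a calpain protease, held 6 and had 41.5%, and Lrrc4c, a synaptic adhesion protein, held 6 and had 29.5%. Robo4, a receptor of the endothelium, had 2 CG and a mean of only 2.24%. Low means were also found at Aox1 (7 CG, 1.31%), Pakap (9 CG, 5.86%) and Znrf4 (9 CG, 13.5%).

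The means of listed CpGs ran from 0.0346% to 0.612% at Tgif2 (8 CpGs), from 0.214% to 3.31% at Sstr4 (22 CpGs), from 0.615% to 0.838% at Robo4 (2 CpGs) and from 26.8% to 48.2% at Atp2b2 (4 CpGs). At Boll they ran from 0.708% to 23.2% (20 CpGs), described further with the CpG values. The letters GGGCGG, the core of a GC box, were found on either strand in 6 of the 17 windows and in 35.7% of all windows. This is a match of letters, and no binding was measured.

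Regions that held a start site had a median level of 13.5% (17 regions), those within 1 kb of one 11.3% (54 regions) and those farther away 25.8% (63 regions). Of the 18 regions with a mean of 40% or more, 13 were farther than 1 kb from a listed start site. A region whose own gene lacks a listed start site could count as farther, so these classes are approximate. These are descriptions of which regions the panel holds and were not tested.

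The 136 regions spanned nearly unmethylated to intermediate levels, with means over lines from 0.274% to 57.4% and a median of 16.8%. The 648 kept regions outside the category had a median of 15.2%. Means under 5% were found at 30 Cancer category regions, means from 5% to 20% at 45, from 20% to 40% at 43 and of 40% or more at 18. The SD between lines had a median of 12.9 points, against 11.3 points outside the category, and it grew with the level, from a median of 1.85 points in the lowest of these classes to 7.82, 18.6 and 21.7 points in the next ones. The lowest line was over 5% at 19 regions and at 0 at 40. Of the 136, 30 had a range of over 80 points between lines, 14 had a highest line over 90% and 37 had a highest line under 25%.

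**Figure D1:**
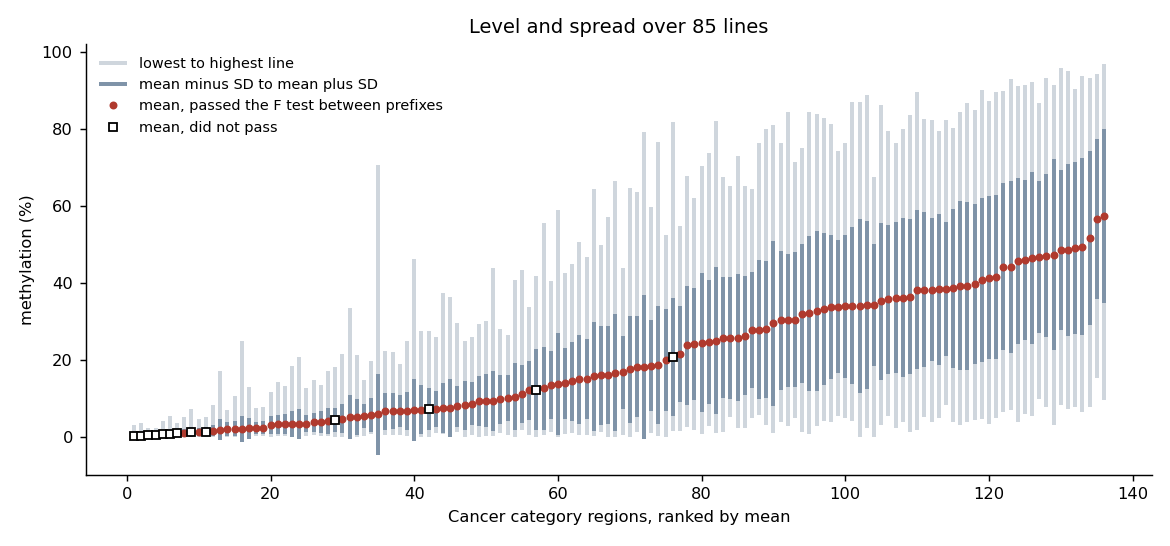
Methylation of the 136 Cancer category regions, ranked by mean, in percent, with the mean as a point, the SD as a dark bar and the range over lines as a light bar. Means rise from 0.274% to 57.4%, and the 13 open squares, regions that did not pass the F test between prefixes, lie mostly at the low end.

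The 6 regions with the highest means lay in or near Arhgap24, Pax6, Col25a1, Ncam1, Npy and P2ry12. Arhgap24, a GTPase-activating protein that restrains Rac, had 57.4% ± 22.7 (SD, n = 83), and its lines ran from 9.58% through a median of 61.1% to 97.1%. Pax6, which directs eye and neural development, had 56.7% ± 20.7 (SD, n = 84), with 15.2% in the lowest line, a median of 58.2% and 94.4% in the highest. Both regions thus spanned most of the scale from line to line.

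Col25a1, a membrane collagen of neurons, had 51.7% ± 22.6 (SD, n = 85), in a region 285 bases from the gene. Ncam1, the neural cell adhesion molecule, had 49.4% ± 23 (SD, n = 85). A region 30628 bases from Npy, the gene of neuropeptide Y, had 49.0% ± 22.4 (SD, n = 85), and P2ry12, an ADP receptor of platelets and microglia, had 48.7% ± 22.4 (SD, n = 83). Their highest lines lay between 90.4% and 95.2%, and their lowest between 6.54% and 7.86%.

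The SD was largest at Nfia, with 47.4% ± 24.8 (SD, n = 79) and lines from 3.12% to 91.5%. Ncam1, Arhgap24, Col25a1, Wdfy4 and P2ry12 followed. Wdfy4, a protein needed by dendritic cells to present antigens from other cells, had 34.1% ± 22.6 (SD, n = 73) and was missing from 12 lines.

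At the other end, 6 regions were close to unmethylated in all lines with a value. Cdh4, a cadherin of retina and brain, had 0.274% ± 0.392 (SD, n = 85), with a median of 0.172% and 3.0% in the highest line. Tgif2 had 0.341% ± 0.488 (SD, n = 85) and a highest line of 3.72%, and Pcbp3, an RNA-binding protein, had 0.399% ± 0.404 (SD, n = 85) and a highest line of 2.36%. The means were 0.508% at Lpcat1, a phospholipid acyltransferase, 0.825% at Lrrc8d, a subunit of the volume-regulated anion channel, and 0.892% at Slco4a1, an organic anion transporter. In these 3 regions no line was above 5.53%.

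Lines differed widely in their mean over the Cancer category regions. The mean was 20.5% ± 11 (SD, n = 85 lines), from 2.96% in the lowest line, which was B3A, to 47.5% in the highest, which was B1. In the lowest line 102 of 131 regions with a value were under 5%, none was over 50%, and the highest region was Pax6 with 19.3%. In the highest line 65 of 136 regions were over 50% and 42 over 75%, while 15 were under 5%. That line and the line of rank 2, a B3B line, each had 2 titles, and which library their columns hold is not stated. Over the 85 lines, the median number of regions was 39 under 5% and 6 over 50%, and 22 lines had no region over 50%.

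**Figure D2:**
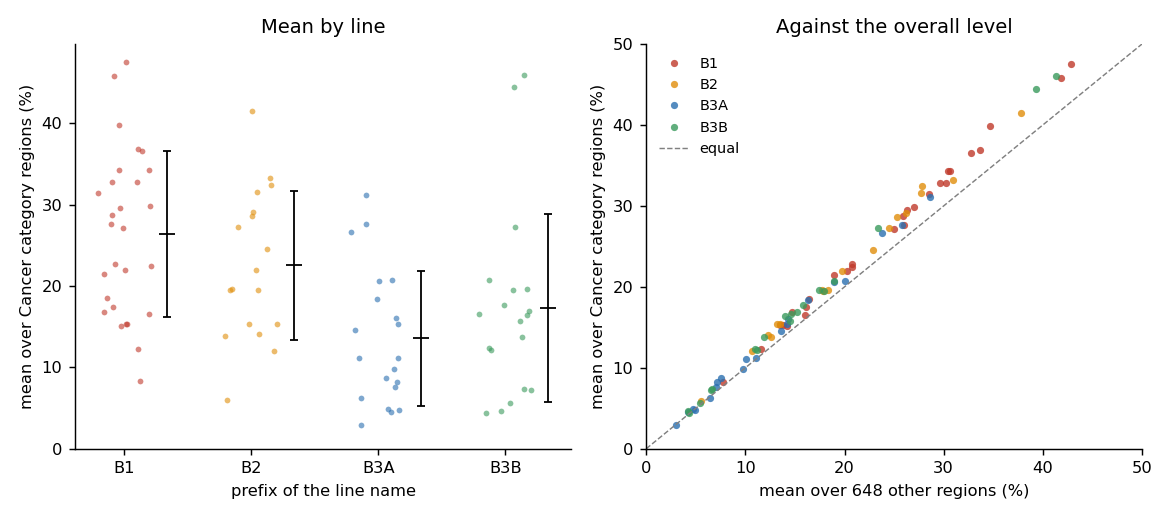
Left, the mean over the Cancer category regions in each of 85 lines, in percent, by prefix, with the mean and SD of each prefix in black; right, the same means against the mean over 648 regions outside the category. B1 averages 26.4% and B3A 13.6%, and in 81 of 85 lines the Cancer category mean lies above that of the other regions.

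By prefix, the mean over the regions was 26.4% ± 10.2 (SD, n = 28) in B1, with a lowest line of 8.29%, a median of 27.4% and a highest of 47.5%. It was 22.5% ± 9.14 (SD, n = 18) in B2, with 5.95%, 20.8% and 41.5%. In B3A it was 13.6% ± 8.35 (SD, n = 20), with 2.96%, 11.1% and 31.2%, and in B3B it was 17.3% ± 11.6 (SD, n = 19), with 4.45%, 16.4% and 46%. The ranges of all prefixes overlapped, and 2 of the 3 highest lines were B1 and 1 was B3B. The final N fell unevenly over prefixes, on 6 B1, 0 B2, 16 B3A and 9 B3B columns. Without those columns B1 averaged 26.1%, B2 22.5%, B3B 16.3% (n = 10) and B3A 8.75% (n = 4). Without the lines that had 2 titles they were 25% in B1, 20.1% in B2, 15.9% in B3B and 13.9% in B3A. The order of the prefixes was the same in both, and what the N and the second title stand for was not tested.

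The Cancer category mean stood 1.95 points ± 1.29 (SD, n = 85) above that of the 648 other regions and followed it closely from line to line. Pearson's r was 0.999 and Spearman's rho 0.998, given as a description because both means come from the same libraries. The slope was 1.12 points per point, and r within B1, B2, B3A and B3B was 0.998, 0.997, 0.998 and 0.999. The other regions were mixed in level. Median region levels were 29.7% in the 2-cell stage category, 21.7% in germline_GGD and 21.4% in imprinting, against 17.5% over 139 kept Cancer rows. The remaining categories had lower medians, such as 4.58% over 127 aging_Young regions.

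Most Cancer category regions differed between prefixes, and so did most regions of the panel. By the F test in limma, Benjamini-Hochberg adjusted over all 787 regions, 123 of 136 (90.4%) passed the threshold of 0.05, beside 81.6% of all regions tested. B1 had the highest mean at 107 of the 123 and B2 at the other 16, and B3A had the lowest at 120 and B3B at 3. Levels at these regions moved together from line to line, so the 123 are not independent results. The mean over the 648 other regions had the same order of prefixes, with B1 at 23.9%, B2 at 20.2%, B3B at 15.4% and B3A at 12.6%.

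Of the 6 contrasts between prefixes, 3 gave calls. By the limma contrasts with Benjamini-Hochberg adjustment over all regions, 124 of the 136 were higher in B1 than in B3A, beside 85.3% of all regions. Higher in B1 than in B3B were 103, beside 67.1%, and higher in B2 than in B3A were 116, beside 72.4%. The last of these ended when the lines with 2 titles were left out, with 0 of the 136 called. The share of all regions called there was not counted. No Cancer category region was lower in the first prefix of any of these pairs. For the other 3 pairs limma called 0 of the 136. B1 against B2 called 0.0% of all regions, with 7 of the 136 at an unadjusted p under 0.05 and a smallest adjusted p of 0.549. B2 against B3B called 0.254%, with 42 and 0.117. The B3A and B3B lines gave 0.0%, with 5 and 0.612.

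Chd7, a chromatin remodeller of neural crest development, had the smallest p in a region 332129 bases from the nearest listed start site but inside the gene (chromosome 4, 8751846 to 8752345). Its level was 40.1% ± 19.1 (SD, n = 28) in B1, from 9.42% through a median of 41.9% to 76.3%. It was 28.9% ± 13.8 (SD, n = 18) in B2, from 9.93% through 26.1% to 56.5%. In B3A it was 16.6% ± 9.45 (SD, n = 20), from 5.75% through 15.4% to 41.6%, and in B3B 21% ± 16.8 (SD, n = 19), from 6.32% through 14.3% to 69.5%. The lowest B1 lines fell among the B3A lines, and the ranges of all prefixes overlapped. The difference passed the limma F test (adjusted p = 8.11e-05), and B1 exceeded B3A by 1.78 ± 0.33 (SE) on the log2 odds scale (the log2 of methylated over unmethylated fraction, with an offset of 0.01).

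At Tiam1, an exchange factor that activates Rac (chromosome 16, 90023752 to 90024251), B1 lines ran from 18.3% through a median of 53.0% to 80.0%, and B3A lines from 4.40% through 18% to 53.1%. B1 lines averaged 51.5% ± 17.1 (SD), B2 lines 45.3% ± 15.7, B3B lines 34% ± 22.4 and B3A lines 24.1% ± 16.5. B1 exceeded B3A by 2.02 ± 0.37 (SE) on the log2 odds scale, with an F test adjusted p of 0.000102 by limma. At Tekt2, a tektin of the sperm flagellum, the order was the same at a lower level, with 13.4% ± 5.34 (SD, n = 28) in B1 and 5.78% ± 4.38 (SD, n = 20) in B3A.

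Glis1, a zinc finger transcription factor, averaged 48.6% over B1 lines, 37.2% over B2, 22% over B3A and 30.2% over B3B. Mgst2, a microsomal glutathione transferase, had 53.8%, 40.5%, 23.9% and 32.7%, and Ptpn5, a tyrosine phosphatase of neurons, had 27.9%, 21.5%, 11.9% and 15.1%, in the same order of prefixes. A region 8982 bases from Gm52261, a predicted gene, had 54.7%, 39.7%, 24.3% and 32.1%. Lpin1, a phosphatidate phosphatase of lipid synthesis, had 34.8%, 30.2%, 15.7% and 21.6%. In each of these 5 regions B1 was highest and B3A lowest, and their F test adjusted p by limma lay between 8.18e-05 and 0.000108.

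**Figure D3:**
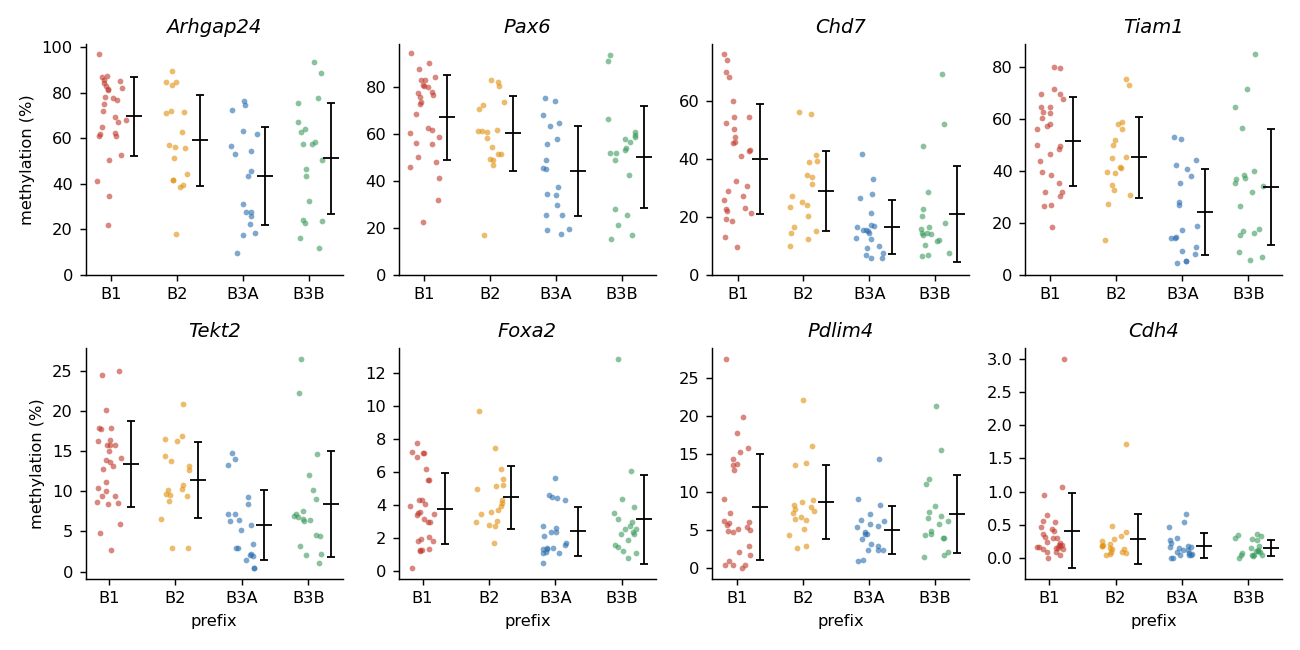
Methylation in percent at 8 regions by prefix of the line name, with each line as a point and the mean and SD of each prefix in black; the vertical scales differ, and Chd7 is shown at its region of smallest p and Foxa2 at the region 1791 bases from the gene. B1 lines are highest on average at Arhgap24, Pax6, Chd7, Tiam1 and Tekt2, while the levels at Cdh4 do not exceed 3.0% in any prefix.

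The 13 regions that did not pass the limma F test (adjusted p between 0.0832 and 0.705) were mostly unmethylated ones, with 9 of them under 2%. They were Cdh4, Tgif2, Pcbp3, Lpcat1, Lrrc8d, Slco4a1, Shc1, Aox1, Myo10, Nhej1, Pdlim4, Fam131b and Dpysl5. Myo10, a myosin of filopodia, had the largest adjusted p, 0.705, with prefix means of 1.49%, 1.42%, 1.38% and 1.12% in B1, B2, B3A and B3B. Dpysl5, a protein of growing axons, was the exception in level, with 20.7% ± 15.3 (SD, n = 85) and prefix means of 21.3%, 22.5%, 16.8% and 22.4% (adjusted p = 0.295). With a smaller offset of 0.001 in the log2 odds, Cdh4 and Lrrc8d passed (adjusted p = 0.0324 and 0.0398, limma). On the fraction scale Fam131b passed (adjusted p = 0.0389, limma). A miss of the threshold does not show that the prefixes were alike at these regions.

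Once the overall level of a line entered the limma fit as a covariate, few differences between prefixes were left. The overall level was the mean log2 odds over the 648 regions outside the category. With it, 6 of 136 (4.41%) Cancer category regions passed the F test, beside 3.56% of all regions, a share near the background. They were the regions near Gm52261 (adjusted p = 0.0178), at Abhd14b (0.0341), near Foxa2 (0.0341), at Theg (0.0357), at Atp2b2 (0.0357) and near Pdlim4 (0.0451). By limma contrasts with the covariate, the Gm52261, Theg and Gm42231 regions were higher in B1 than in B2, where 1.65% of all regions were. The Abhd14b and Foxa2 regions were lower, where 2.8% of all regions were. Atp2b2 was lower in B2 than in B3B by 0.47 ± 0.12 (SE) on the log2 odds scale (adjusted p = 0.0344, limma), where 0.254% of all regions were. Limma with the covariate called 0 of the 136 higher in B1 than B3A (0.0% of all regions), 0 higher in B1 than B3B (0.0%) and 0 higher in B2 than B3A (0.381%). At an unadjusted p under 0.05 in either direction there were 16, 19 and 9.

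Abhd14b had 31% ± 14.5 (SD, n = 28) in B1 and 33.7% ± 14.2 (SD, n = 18) in B2, against 16.1% in B3A and 20.9% in B3B. B1 was lower than B2 there by 0.56 ± 0.13 (SE) on the log2 odds scale at the same overall level (adjusted p = 0.00604 for the limma contrast). Theg, a gene of the testis, had 58.2% ± 17.7 (SD, n = 28) in B1 and 45.3% ± 19.8 (SD, n = 18) in B2, and B1 was higher by 0.44 ± 0.11 (SE) with the covariate (adjusted p = 0.00702, limma). Pdlim4, a PDZ and LIM protein of the actin skeleton, averaged 8.06% over B1 lines, 8.72% over B2 lines, 7.13% over B3B lines and 5.07% over B3A lines and was not called without the covariate (adjusted p = 0.204, limma).

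Where the overall level was subtracted from the fractions instead, 107 of 136 passed the F test, beside 77.0% of all regions. The direction of the calls then split, with 55 regions higher in B1 than in B3A, beside 32.8% of all regions, and 55 lower, beside 43.5%. Against B3B, 47 were higher in B1, beside 29.1%, and 50 lower, beside 42.1%. In B2, 36 were higher than in B3A, beside 17.8%, and 34 lower, beside 30.9%. B1 exceeded B2 at 1 region, beside 0.889% of all regions, and was lower at 0, beside 0.762%. Subtraction takes the same number of points from a region that barely varies as from one that varies widely. All of the 6 regions with the lowest means were called under it, though they were not called on the deposited fractions.

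Most single regions followed the overall level of a line, with a larger median slope in classes of higher level. Against the mean over the 648 regions outside the category, the median Pearson r was 0.916 and the median Spearman rho 0.916 over the 136 regions (the medians of r within prefixes were 0.888 over B1 lines, 0.90 over B2, 0.909 over B3A and 0.931 over B3B). The 648 regions outside the category, each against the mean of the others among them, had a median r of 0.863 and were not tested. By two-sided permutation with Benjamini-Hochberg adjustment over the 136, 133 passed for r and 134 for rho. As the regions were measured in the same libraries, this describes how they vary together. The median slope was 0.121 points per point of overall level in regions under 5%, 0.596 in those from 5% to 20%, 1.83 from 20% to 40% and 2.11 at 40% or more. The slope exceeded 2 in 27 regions.

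Pde11a, a phosphodiesterase of cyclic nucleotides, was among the regions that followed the overall level closely, with r = 0.976 and rho = 0.980 over 85 lines (permutation adjusted p = 1.05e-05 for each, from the smallest p that the permutations can give) and r = 0.976 without the 2 farthest lines. At the other end, r was 0.0689 at Cdh4 (permutation adjusted p = 0.539), 0.111 at Lrrc8d (0.319) and 0.118 at Tgif2 (0.292), all with means under 1%. For rho the values were 0.0635 at Cdh4, 0.197 at Lrrc8d and 0.222 at Tgif2 (permutation adjusted p = 0.561, 0.0728 and 0.0416). Myo10 had r = 0.290 and rho = 0.283, and Pcbp3 had r = 0.376 and rho = 0.424, and both passed the threshold. Without the 2 farthest lines, r was 0.0249, 0.119, 0.0961, 0.290 and 0.306 at Cdh4, Lrrc8d, Tgif2, Myo10 and Pcbp3. Within prefixes the sign varied at Lrrc8d, where r was -0.28 in B1 and B3A, 0.58 in B2 and 0.61 in B3B.

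**Figure D4:**
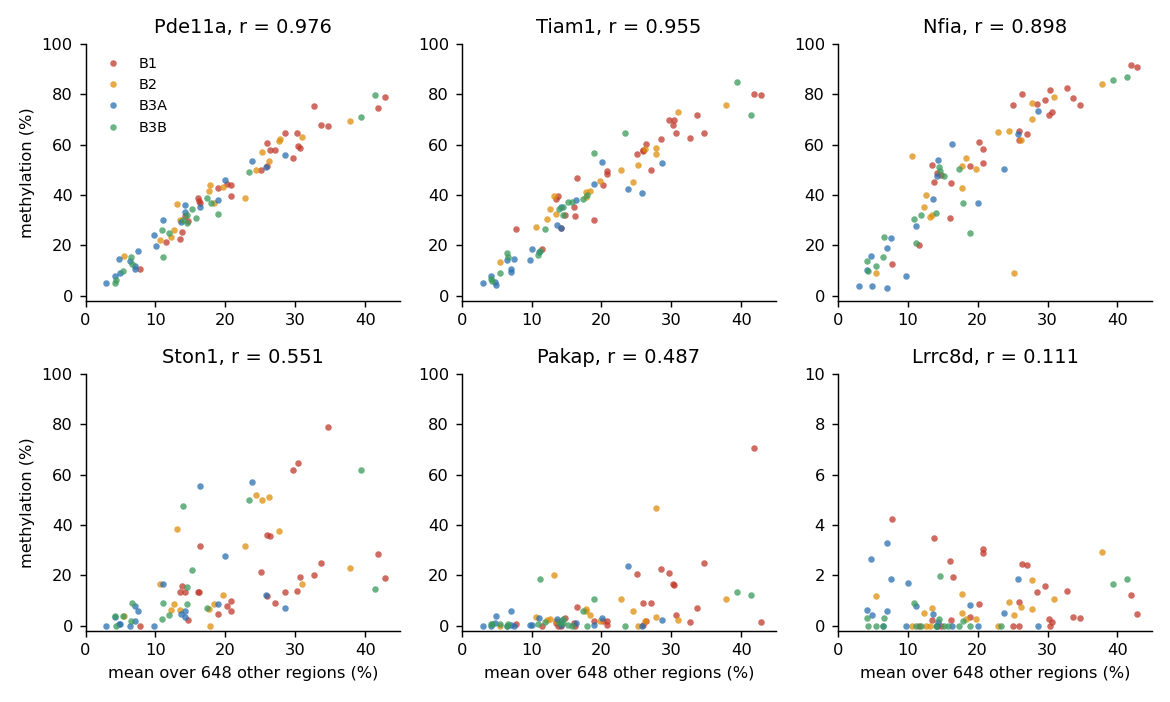
Methylation in percent at 6 regions against the mean over 648 regions outside the category, with each of up to 85 lines as a point coloured by prefix; the vertical scale of Lrrc8d is smaller. Pde11a and Tiam1 rise with the overall level (r = 0.976 and 0.955), and single lines stand off at Nfia, Ston1 and Pakap. At Lrrc8d r is 0.111 over all lines, and its sign varies between prefixes.

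CpGs of the same region could differ in level. CpG values were listed for 105 of the 136 regions, with 1042 CpGs in all, and 89 regions had at least 3. Over those 89, the gap between the lowest and the highest mean of a CpG had a median of 14.9 points. It was over 20 points in 33 regions and under 5 points in 21. The median gap was 3.14 points in the 25 of these regions with means under 5% and 23.7 points in the 28 with means from 20% to 40%. CpGs of 1 region share reads, so these gaps are descriptions.

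Lpin1 had the largest gap (chromosome 12, 16590092 to 16590591). Its CpG 48 bases before the centre of the region had 7.62% ± 8.55 (SD, n = 85). The CpG 102 bases after the centre had 46.8% ± 23.4 (SD, n = 85), higher in 85 of 85 lines. The lowest and highest CpG of each region were picked by their means over these same lines, which favours such counts. The neighbouring CpGs at 70 and 75 bases after the centre had 7.92% and 35.3%. The former was at 0 in 43 lines and reached 60.5% in the highest. Its means were 7.76%, 8.35%, 5.60% and 10.2% in B1, B2, B3A and B3B, with B3B highest, and those of the CpG at 102 bases were 60.0%, 52.2%, 31.4% and 38.3%, with B1 highest. Differences between prefixes were not tested at single CpGs.

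In Il12rb1, a receptor subunit for interleukin 12, 19 CpGs ran from 7.37% to 46.4%, again with the highest CpG above the lowest in 85 of 85 lines. Pde11a rose to 53.9% at the centre of the region and fell to 15.5% at the CpG 86 bases after it. Fgf21, a metabolic hormone of the liver, ran from 16.2% to 48.9%, and Coro6, a coronin of the actin skeleton, from 4.03% to 36.4%. At Boll, with a mean of 5.47%, 1 CpG 45 bases before the centre stood at 23.2% ± 10.5 (SD, n = 85), with neighbours 2 and 4 bases away at 13% and 11.8%, while the CpG 126 bases before the centre had 0.708%.

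**Figure D5:**
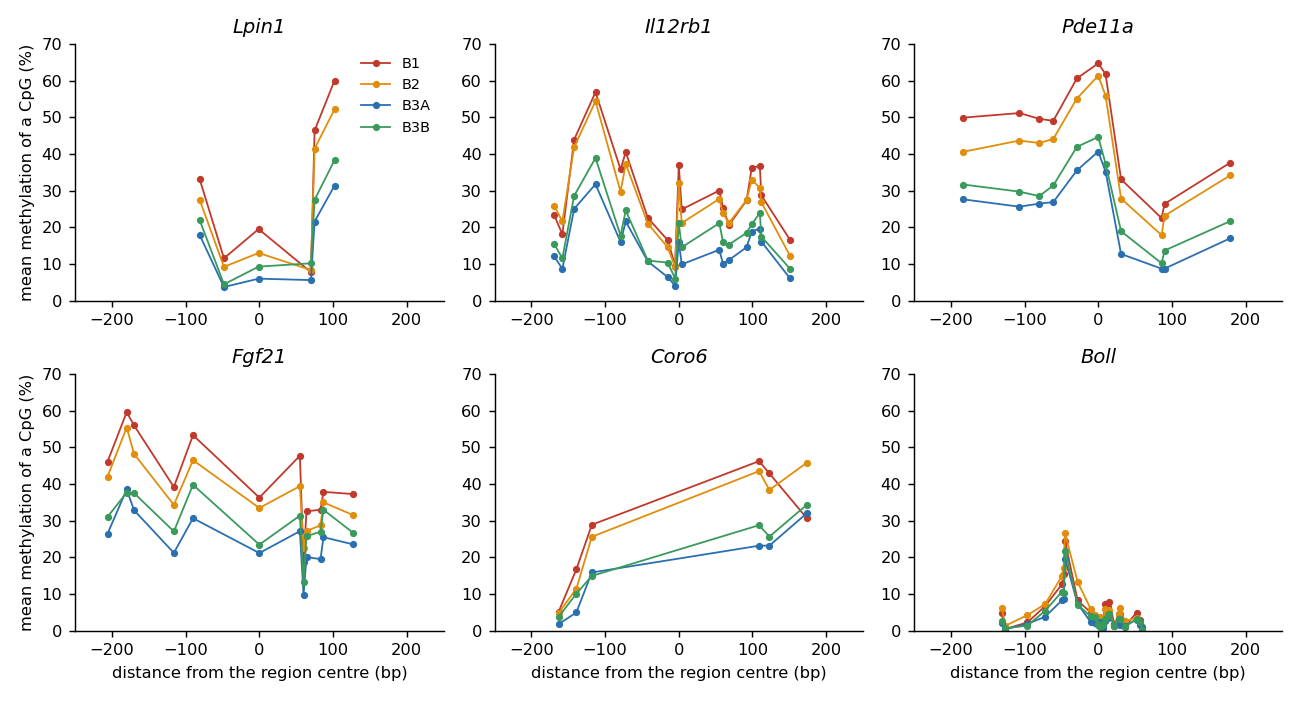
Mean methylation of each listed CpG, in percent, against its distance from the centre of the region in base pairs, at 6 regions, with 1 line per prefix. Over all lines the highest CpG is at 46.8% at Lpin1 and 23.2% at Boll; the order of the prefixes varies between CpGs, as at 174 bases after the centre of Coro6, where B1 is at 30.6% and B2 at 45.9%.

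Of the genes with Cancer category regions, Chd7, Smad3 and Foxa2 each had a pair of them. The pair in Chd7, 36517 bases apart, had means of 27.9% and 30.5%. The second exceeded the first in 50 of 82 lines, with a mean difference of 2.75 points ± 10.6 (SD). In Smad3, a signal transducer of TGF-beta, and at a region 3508 bases from it, 103874 bases away, the means were 48.6% and 46.8%. The second was higher in 43 of 85 lines, with a difference of -1.79 points ± 9.65 (SD). The pair at Foxa2, a transcription factor of endoderm, 4340 bases apart, had 3.77% and 3.47%, with a difference of -0.298 points ± 1.23 (SD, n = 85). The second was higher in 36 of 85 lines. These differences were not tested.

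Of 7 lists of genes with textbook roles, 4 had a gene at a Cancer category region. These lists were chosen with earlier results of these data known, and the counts below are read against the 81.6% of all regions that passed the limma F test. The list of oncogenes and growth factor genes matched 1 region, at Ret, a receptor tyrosine kinase, with 47.1% ± 21.1 (SD, n = 85), from 7.88% through a median of 47.9% to 93.5%. It passed (adjusted p = 0.000467). The list of WNT, TGF-beta, Hedgehog and Notch genes matched 4 regions, all of which passed, with a median of 42.5%. They were the pair at Smad3, Lef1, a transcription factor of WNT signalling, with 38.2% ± 20.6 (SD, n = 85), and Ihh, a Hedgehog ligand, with 6.68% ± 4.78 (SD, n = 84).

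The list of developmental transcription factors matched 5 regions, all of which passed, with a median of 34%. Pax6 and Nfia were at 56.7% and 47.4%, a region 5390 bases from Foxl2, a factor of the ovary, was at 34% ± 18.6 (SD, n = 85), and the Foxa2 pair was under 4%. Neither Foxa2 region passed in columns without a final N (adjusted p = 0.0726 and 0.0735, limma). Of 2 regions on the list of adhesion and matrix genes, Ncam1 passed (adjusted p = 0.000325) and Cdh4 did not (adjusted p = 0.113). Lists of 72 tumour suppressor and cancer-methylated genes, 44 immune genes and 30 cancer-testis and germline genes matched 0 of the 136 regions. Boll and Theg, named above for other reasons, are expressed in the germline but were not on the last of these lists. Il12rb1 was not on the immune list. Slit2 was on the list of tumour suppressors, but its Cancer category row was below the limit on missing values.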

How the data were processed

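Methylation was measured by EM-seq with Twist hybrid capture, per the labels' protocols. Trim Galore 0.6.4, Bismark, Bowtie2 and mm10 are named in the submitters' processing notes, without their roles. The authors deposited methylation fractions, averaged per target region in 1 table and per CpG in the other (7917 CpGs), each filtered at a coverage of 10 per the tables' own names. Region values were read as fractions and missing cells as missing. No other per-sample columns were present, and no pair of columns was identical.

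Prefixes were compared by moderated F tests and contrasts (limma 3.58.1, R 4.3.3) over all 787 kept regions, after the transformation log2((fraction + 0.01)/(1 - fraction + 0.01)). Adjustment was by Benjamini-Hochberg, at 0.05. The overall level of a line came from the 648 kept regions outside the category. Correlations were tested with 100000 two-sided permutations (Python 3.11.15, SciPy 1.17.1 and NumPy 2.4.6, with tables read by pandas 2.3.3), and matplotlib 3.10.9 drew the plots. The limma step was tested on simulated regions that varied independently. The deposited regions moved together, so that test does not give the error rate here. Gene names, start sites and promoter sequences came from RefSeq tables of GRCm38.p6. All 101 listed CpGs inside the promoter windows of the regions fell on a CG of those sequences.

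The regions, gene lists and tests were chosen with earlier results of these data known. Regions are named for the 6 highest and 6 lowest means, the 6 largest SDs, the 8 smallest p, the 5 lowest r, calls with the covariate, gene lists, the 5 largest gaps between CpGs and the limit on missing values. Other regions were named after their values were seen.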

Additional observations from a re-analysis of the deposited data

How the results depend on the processing

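Without read counts, a value from few reads could not be told from one of many, and sampling noise adds to each spread. The coverage limit could not be varied, because the tables hold values at 1 limit only. No paired analysis was made. Some numbers after the prefix recur in another prefix, but the labels do not say whether those lines are related. Outlier rules for small groups were not applied, since each prefix held over 10 lines.

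The main counts, 642 regions of the panel and 123 Cancer category regions passing the limma F test, kept within 1.5 times under the other alternatives run, where 105 to 125 Cancer category regions passed of 136 tested and 104 of 114 and 91 of 105 where fewer were tested. The panel counts under these alternatives ran from 475 to 675, over differing numbers of regions. With the overall level as a covariate the main counts fell to 28 and 6. With the covariate, contrasts called 3 regions higher and 2 lower in B1 than B2, 1 lower in B2 than B3B, and 0 higher in B1 than B3A, B1 than B3B or B2 than B3A. With fractions centred by the overall level, 1 was higher in B1 than B2, 55 higher and 55 lower in B1 than B3A, 47 and 50 in B1 than B3B, and 36 and 34 in B2 than B3A. Higher in B2 than in B3A were 73 on the fraction scale and 0 in lines with 1 title, against 116. The shares of all regions called there were not counted, and the cause of the drop was not tested. Of the 40 regions named by the rule, 26 lost their call with the covariate, 3 (Foxl2, Fgf21 and Coro6) with centring, 2 (Wdfy4 and the Foxa2 region 1791 bases from the gene) in lines with 1 title and 2 (the Foxa2 pair) in columns without a final N. Cdh4 gained one in lines with 1 title. Without the columns that end in N, the mean over the regions in B3A fell from 13.6% to 8.75%. Every listed CpG had a value in all lines, so the alternative restricted to such CpGs gave the same values.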

Other observations

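A few Cancer category regions departed from the overall level of a line; they were named after their values were seen and were not tested. At Ston1, an adaptor of endocytosis (chromosome 17, 88627451 to 88627950), the SD left around the straight line on the overall level was 15.7 points, against a median of 4.50 points over the 136 regions. Its values in 79 lines ran from 0% through a median of 12.2% to 79.2%, with 11 lines over 40% and 20 under 5%. The line farthest from the fit was a B1 line with 79.2%, where the fit gave 34.6%.

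At Pakap (chromosome 4, 57845045 to 57845544), 60 of 85 lines were under 5% and the median was 1.84%, while the highest 2 lines reached 47.0% and 70.7%. The latter was a B1 line, where the fit gave 18.1%. At Nfia, 1 B2 line had 9.09% where its overall level of 25.3% gave a fitted 61.7%. At Dpysl5, 1 B3B line had 81.9% where the fit gave 43.9%. Aacs, which makes acetoacetyl-CoA from ketone bodies, had 1 B2 line at 66.7% (fit 26.8%), and Esrrg, an orphan nuclear receptor, had 1 B1 line at 4.55% (fit 28%).

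Of the 8 Cancer category rows below the limit on missing values, the one at Nrxn3, a synaptic adhesion protein, had the highest mean, 72.7% in 49 lines, with a range from 10.9% to 100%. Slit2, an axon guidance ligand, had 53.2% in 30 lines. Slc12a5, Tmprss2, Ctnna2, Magoh and Ppp6r2 had 33.4%, 31.5%, 28.9%, 26.8% and 20.6%, in 64, 50, 16, 40 and 38 lines. These means rest on different lines and are not compared.

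The line with the highest mean over the Cancer category regions, which was B1, was also the highest of all lines at 49 of the 136 regions. The lines of rank 2 and 3 were highest at 26 and 25. Those of rank 1 and 2 were lines with 2 titles.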
